A study of Homo sapiens with 8 samples.

Results

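WNT ligands, their secreted antagonists and the feedback genes of the pathway were examined as a set of 10 genes: the ligands WNT2, WNT5A and WNT5B, the secreted antagonists SFRP1, SFRP2, DKK1, DKK2 and DKK3, the membrane-bound inhibitor APCDD1 and the intracellular feedback gene AXIN2. They were taken by symbol from the 28265 genes counted in every library, and they were chosen by an earlier reading of the same data, in which APCDD1 was among the genes with the largest decreases after 3 days of treatment. The cells were IMR90, a widely distributed line of human fetal lung fibroblasts that divide a limited number of times, and all 8 libraries came from factory RNA-Seq, which sequences RNA that stays attached to the isolated transcription factories of the nucleus. Each of 4 conditions had 2 libraries. The control was proliferating cells, which the labels call young. The labels do not say whether these cells were given DMSO, the control treatment that the paper names for its mRNA-Seq. Cells of 2 conditions were given inflachromene (ICM), a small molecule that targets HMGB proteins, for 3 days or for 6 days. The last condition has the label MetaICM, a name the labels do not explain. Whether the MetaICM cells were given ICM is therefore not known here, and they are set apart from the 3-day and 6-day libraries by their label only. The labels of these libraries give no ICM dose, while the paper names 10 μM for its nascent RNA at 3 and 6 days. All conditions share 1 cell line, and nothing in the sources used here says whether the libraries of a condition came from separate cultures, so p-values measure the spread between these libraries only.

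WNT proteins are secreted lipid-modified ligands that bind Frizzled receptors together with co-receptors. In the canonical branch this binding stabilises beta-catenin, which enters the nucleus and switches on targets with factors of the TCF/LEF family, and the same signal raises its own brakes, such as AXIN2, a scaffold of the complex that destroys beta-catenin, the co-receptor antagonist DKK1, and APCDD1, which binds WNT and its co-receptor at the membrane. SFRP proteins bind WNT ligands outside the cell. WNT5A and WNT5B act mostly through beta-catenin independent branches and are made by mesenchymal cells, lung fibroblasts included.

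The libraries held 12095123 to 23166405 counted read pairs. Libraries of the same condition correlated with each other at r = 0.99 to 0.997 on the log2 scale, and libraries of different conditions at 0.941 to 0.988. All 12 fibroblast markers examined had counts in every condition, with a summed level, in CPM (read counts scaled to the size of the library), of 40425 to 41928 in the control, 22185 to 23636 at 3 days, 16691 to 17023 at 6 days and 37402 to 37589 in MetaICM. The 7 epithelial markers summed to at most 6.21 CPM in any library, and CD3E, which defines T cells, had no count. The 4 smooth muscle markers, ACTA2 among them, summed to 557.6 to 637.3 CPM in the control, 101.9 to 106.9 at 3 days, 85.8 to 97.2 at 6 days and 363.5 to 394.5 in MetaICM. Both the fibroblast and the smooth muscle sums therefore moved with APCDD1, WNT2 and SFRP1, and their part in the results below was not tested.

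The sequences before the start sites are shown for the genes at the extremes of the set, APCDD1 and WNT2, which had the largest decreases at 3 days, and DKK1, whose window was the only one examined that held the core motif bound by TCF/LEF factors. Each is the stretch of 250 bases before the RefSeq start (sequence of the GRCh38.p14 table, found once on the same chromosome of GRCh37, whose coordinates are given), written 5′ to 3′ on the strand of the gene.
APCDD1, chr18:10454382-10454631, plus strand: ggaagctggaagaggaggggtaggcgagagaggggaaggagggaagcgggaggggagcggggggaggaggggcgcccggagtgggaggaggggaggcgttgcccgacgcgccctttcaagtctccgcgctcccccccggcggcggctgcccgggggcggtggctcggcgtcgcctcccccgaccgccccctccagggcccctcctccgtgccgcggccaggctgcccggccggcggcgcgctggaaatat
WNT2, chr7:116963113-116963362, minus strand: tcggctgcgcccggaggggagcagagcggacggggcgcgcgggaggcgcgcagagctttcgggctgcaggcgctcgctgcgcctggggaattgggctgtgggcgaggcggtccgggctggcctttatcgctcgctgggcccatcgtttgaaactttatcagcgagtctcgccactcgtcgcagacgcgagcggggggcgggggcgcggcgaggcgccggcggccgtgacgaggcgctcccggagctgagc
DKK1, chr10:54073791-54074040, plus strand: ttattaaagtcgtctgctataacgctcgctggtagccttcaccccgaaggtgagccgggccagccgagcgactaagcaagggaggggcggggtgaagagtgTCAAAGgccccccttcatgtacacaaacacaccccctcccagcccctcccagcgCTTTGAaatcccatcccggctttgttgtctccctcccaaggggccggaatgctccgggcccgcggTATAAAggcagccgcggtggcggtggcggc
Capitals mark CTTTGA, searched on both strands so that it also appears as TCAAAG, and TATAAA, searched on the strand of the gene only. The motifs do not overlap here. The DKK1 window held CTTTGA letters at 149 and 95 bases before the start and TATAAA at 30 bases before it. Of 35116 RefSeq windows of the same length, 11.2% held at least 1 CTTTGA on either strand, 0.977% held 2 or more, and 6.8% held TATAAA. In the windows of SFRP2, WNT2, APCDD1, WNT5A (with 2 starts) and WNT5B (with 2 starts) neither set of letters was found, which says only that these letters are not in these windows. The APCDD1 and WNT2 windows were 77.2% and 74.0% G and C, against a median of 58.0% over all windows and 62.8% for DKK1.

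Levels below are CPM scaled with TMM factors, which correct for differences in composition between libraries, and where genes are compared with each other the value is divided by exon length (RPKM). A gene was called where the quasi-likelihood test of edgeR gave a Benjamini-Hochberg adjusted p under 0.05 over all genes tested and the absolute log2 fold change was over 0.6. Because the reads come from many cells at once, fewer cells expressing a gene and less RNA per cell cannot be told apart in any value below. In the 3-day comparison with the control the members were selected on their values, so those values are a description with no test. APCDD1 was likewise tested only between MetaICM and 6 days, where none of the libraries used to choose it enter. The other members were also tested in comparisons that use the control or 3-day libraries again. Their p-values there are not independent of the choice of the set. A gene was tested where at least 2 libraries reached about 10 counts. A gene that reached this filter in 1 condition only therefore had to differ to be tested. This is stated below for genes of that kind that are called and named with a test. Counts of list genes also include unnamed ones.

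APCDD1 (chr18:10454632-10489946, GRCh37, plus strand) was nearly absent at 3 and 6 days and present in the control and in MetaICM. Its level was 2.14 and 1.74 CPM in the control libraries, 0.0460 and 0.0675 CPM at 3 days, 0.0537 and 0.159 CPM at 6 days, and 2.53 and 2.17 CPM in MetaICM. All 4 libraries of 3 and 6 days lay far below all control and MetaICM libraries. These levels rest on few reads: 57 counts over both control libraries, 2 at 3 days, 4 at 6 days and 101 in MetaICM. The fitted log2 fold change was -4.98 at 3 days and -4.11 at 6 days, and at 3 days APCDD1 ranked 3 of 15692 genes counted from the largest decrease. Between MetaICM and 6 days, APCDD1 rose by a log2 fold change of 4.38 (SE 0.50, 95% interval 3.33 to 5.42, edgeR adjusted p = 2.32e-07), but it reached the filter only in MetaICM, so that it had to differ to be tested. Leaving out any 1 library kept this difference between 3.82 and 5.30. The MetaICM mean was 1.21 times the control mean, with no test.

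The genes whose levels followed APCDD1 most closely over the 8 libraries, by Pearson correlation of log2(CPM + 1) over 16590 genes ranked, were TK1, a thymidine kinase of DNA synthesis (r = 0.995), TNFSF4, a cytokine (0.995), RELN, a secreted matrix protein (0.995), OXTR, the oxytocin receptor (0.994), and the histone gene H2BC13 (0.992). The points share libraries and depth, the 8 points fall into clusters of low and high conditions, and the values describe likeness only. TK1 was at 28.3 CPM in the control, 4.98 at 3 days, 5.32 at 6 days and 35.4 in MetaICM, the means of 2 libraries each. Within the set, the nearest to APCDD1 was SFRP1 (r = 0.913), followed by AXIN2 (0.882), WNT5B (0.866) and WNT2 (0.842), and WNT5A ran opposite to it (-0.894). RNA of TK1 and H2BC13, which cells make as they copy DNA, thus moved with APCDD1, and its part in the APCDD1 values was not tested.

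**Figure D1:**
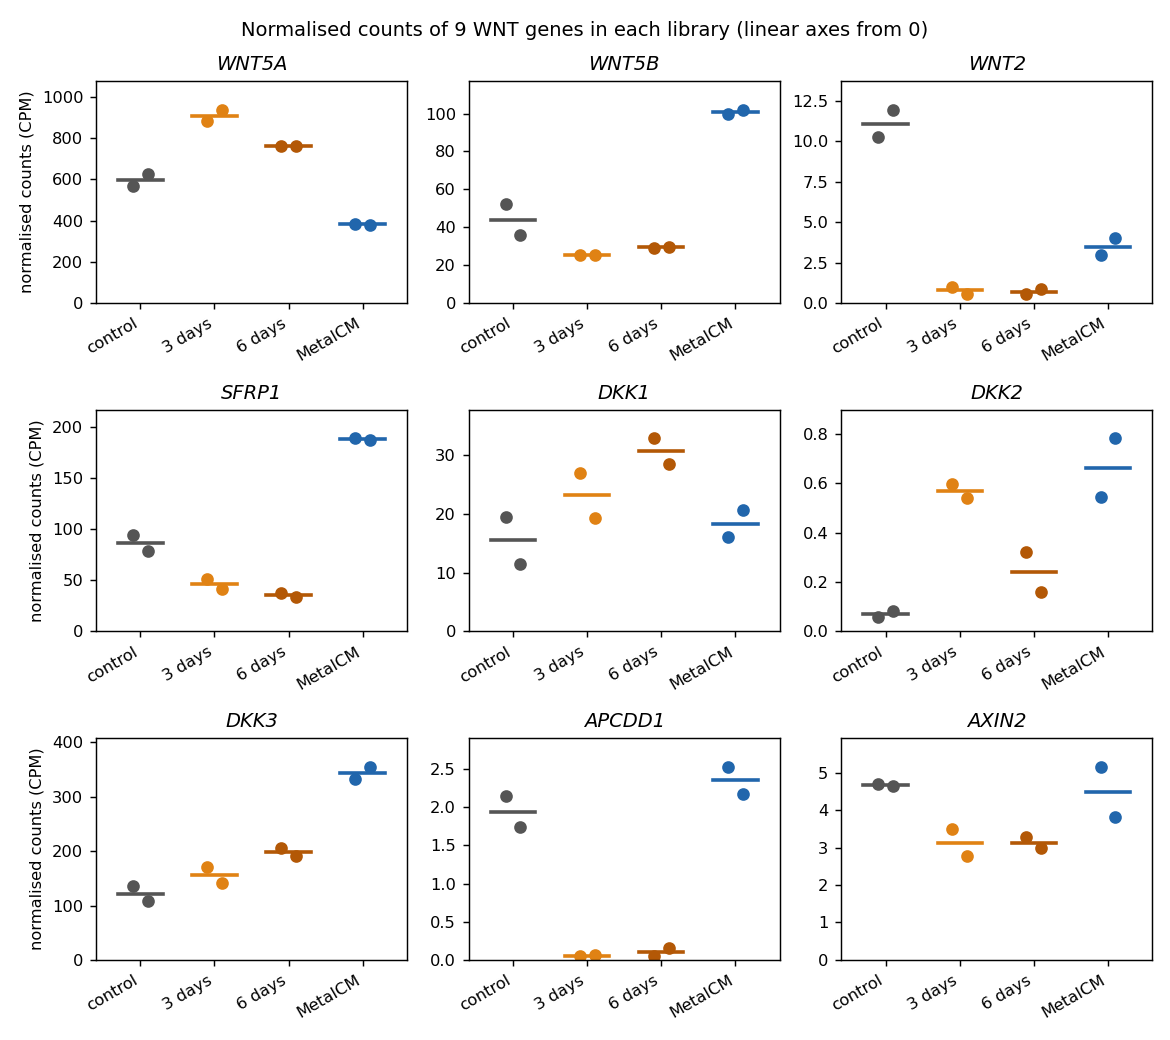
Levels of the 9 genes with counts, in CPM on linear axes that start at 0, with 1 point per library and a bar at the mean of the 2 libraries. APCDD1 and WNT2 lie near 0 in all 4 libraries of 3 and 6 days, WNT5A and WNT5B run in opposite directions, and DKK3 is highest in MetaICM.

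Among the ligands, WNT5A (chr3:55499743-55521670, minus strand), the main WNT of these cells, was highest at 3 days and lowest in MetaICM. It was at 569.1 and 625.4 CPM in the control, 880.5 and 936.3 CPM at 3 days, 761.9 and 763.2 CPM at 6 days, and 381.7 and 380.1 CPM in MetaICM. None of the 4 conditions overlapped another. The difference at 3 days was a log2 fold change of 0.60, and at 6 days it was 0.35 (95% interval 0.10 to 0.60, edgeR adjusted p = 0.0295), a difference larger than the spread but under the fold asked for a call. Between 3 and 6 days the level was lower by a log2 fold change of -0.26 (adjusted p = 0.0412, edgeR), again under that fold. WNT5A fell in MetaICM against 6 days by 1.00 on the log2 scale (SE 0.07, edgeR adjusted p = 2.30e-10), and against 3 days the change was -1.25 (edgeR adjusted p = 2.55e-08). Against the control the change was -0.65 (edgeR adjusted p = 0.00344), a call that was lost without control replicate 2 (-0.58), without MetaICM replicate 1 (adjusted p = 0.0537) and without MetaICM replicate 2 (adjusted p = 0.0647).

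WNT5B (chr12:1726222-1756378, plus strand), the paralog of WNT5A, had the opposite order. Its levels were 52.0 and 36.0 CPM in the control, 25.3 and 25.1 CPM at 3 days, 28.9 and 29.7 CPM at 6 days, and 99.7 and 101.9 CPM in MetaICM. Every MetaICM library was above every control library, and every control library above every 3-day and 6-day library. The log2 fold change at 3 days was -0.81 (-0.51 without control replicate 1). At 6 days it was -0.60 (95% interval -0.97 to -0.22, edgeR adjusted p = 0.0158), just short of the fold asked for a call, with -0.83 without control replicate 2 and -0.31 without control replicate 1. WNT5B rose in MetaICM, by 1.19 against the control (edgeR adjusted p = 0.000852), 2.00 against 3 days (4.74e-10) and 1.78 against 6 days (4.95e-14) on the log2 scale. Between 3 and 6 days the difference was 0.21 (95% interval -0.02 to 0.45, edgeR adjusted p = 0.199).

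WNT2 (chr7:116915505-116963112, minus strand), a ligand of the lung mesenchyme that signals through beta-catenin, had the largest fold differences of the 3 ligands at 3 and 6 days. It was at 10.2 and 11.9 CPM in the control, 1.01 and 0.540 CPM at 3 days, 0.537 and 0.851 CPM at 6 days, and 2.97 and 4.00 CPM in MetaICM. The 3-day and 6-day libraries overlapped each other, and both lay below MetaICM, which lay below the control. The log2 fold change at 3 days was -3.76. At 6 days WNT2 fell by 3.98 on the log2 scale (SE 0.28, edgeR adjusted p = 2.35e-06), that is to 6.26% of the control mean. There it reached the filter in the control only, so that it had to differ to be tested. It rose in MetaICM against 6 days by 2.32 (SE 0.32, edgeR adjusted p = 2.77e-06) and against 3 days by 2.10 (adjusted p = 0.000165), and stayed below the control there, by a log2 fold change of -1.66 (adjusted p = 0.000728). WNT2 in MetaICM was thus 31.4% of the control mean, while APCDD1 was 1.21 times the control mean. The difference between 3 and 6 days was -0.22 (95% interval -1.20 to 0.76, edgeR adjusted p = 0.790).

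The makeup of WNT ligand RNA, summed over 19 WNT genes per exon length, therefore differed between conditions. The sum was 121.5 and 124.4 RPKM in the control, 157.1 and 165.4 at 3 days, 141.4 and 141.5 at 6 days, and 116.0 and 117.9 in MetaICM. WNT5A made up 77.7% ± 3.86 (SD, n = 2) of it in the control, 90.2% ± 0.643 at 3 days, 86.3% ± 0.0537 at 6 days and 52.2% ± 0.737 in MetaICM. The share of WNT5B was 15.4% ± 4.23 in the control, 6.72% ± 0.283 at 3 days, 8.90% ± 0.181 at 6 days and 37.1% ± 0.144 in MetaICM. The ratio of WNT5A to WNT5B per length was 4.08 and 6.48 in the control libraries, 13.0 and 13.9 at 3 days, 9.84 and 9.57 at 6 days, and 1.43 and 1.39 in MetaICM. No condition overlapped another in this ratio, which was given as a description with no test. WNT2 made up 2.34% of the sum in the control and 0.772% in MetaICM. WNT16, a ligand outside the set, made up 0.887% in the control, 0.701% at 3 days, 2.02% at 6 days and 6.53% in MetaICM. Reads that matched more than 1 place were not counted, which can lower genes with close paralogs.

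**Figure D2:**
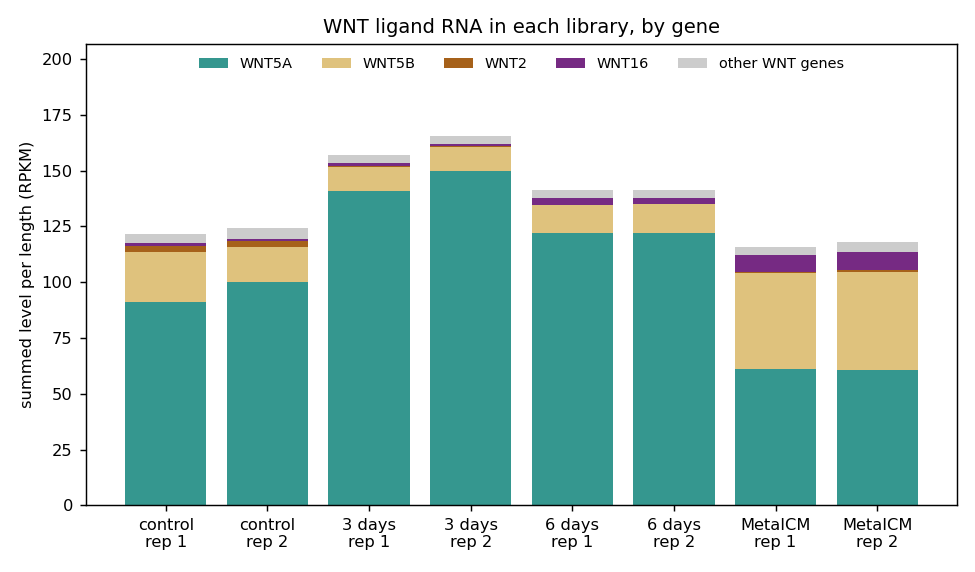
Summed level of 19 WNT ligand genes per exon length (RPKM, linear axis from 0) in each of the 8 libraries, split by gene. WNT5A fills 90.2% of the bars at 3 days and 52.2% in MetaICM, where WNT5B fills 37.1%.

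Of the secreted antagonists, SFRP1 (chr8:41119481-41166992, minus strand), which binds WNT ligands, fell at 6 days and rose in MetaICM above the control. Its levels were 94.6 and 79.2 CPM in the control, 51.2 and 41.6 CPM at 3 days, 37.4 and 33.6 CPM at 6 days, and 189.2 and 187.8 CPM in MetaICM. No condition overlapped another. The log2 fold change at 3 days was -0.91. SFRP1 fell at 6 days by 1.30 on the log2 scale (SE 0.13, edgeR adjusted p = 3.09e-05), and the further difference between 3 and 6 days was -0.40 (95% interval -0.64 to -0.15, edgeR adjusted p = 0.0221; -0.23 without 3-day replicate 1), under the fold asked for a call. It rose in MetaICM by 2.41 against 6 days (SE 0.08, edgeR adjusted p = 5.03e-16), 2.02 against 3 days (1.11e-09) and 1.11 against the control (0.000270). Per length, SFRP1 was 0.233 and 0.177 of WNT5A in the control libraries, 0.0814 and 0.0622 at 3 days, 0.0687 and 0.0616 at 6 days, and 0.694 and 0.691 in MetaICM. The microRNA gene MIR548AO lies inside SFRP1 on the same strand and shares no exon base with it. SFRP2 (chr4:154701743-154710235, minus strand), its relative, had 0 counts in all 8 libraries, which allows a level of up to 0.130 to 0.249 CPM per library (a floor of 3 counts, for counting error only).

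DKK1 (chr10:54074041-54077417, plus strand), which blocks the LRP co-receptors and is itself a beta-catenin target, was highest at 6 days. Its levels were 19.5 and 11.5 CPM in the control, 27.0 and 19.2 CPM at 3 days, 32.8 and 28.4 CPM at 6 days, and 16.0 and 20.6 CPM in MetaICM. The 6-day libraries were above all others, while the control, 3-day and MetaICM libraries overlapped. The log2 fold change at 3 days was 0.56, with values between 0.23 and 1.01 when 1 library was left out. DKK1 rose at 6 days by 0.96 (SE 0.21, edgeR adjusted p = 0.00442) and fell in MetaICM against 6 days by 0.73 on the log2 scale (SE 0.11, edgeR adjusted p = 1.32e-05), a call lost without MetaICM replicate 1 (-0.55). The difference between MetaICM and the control was 0.22 (95% interval -0.27 to 0.71, adjusted p = 0.487), and 0.68 with a call without control replicate 1. Between 3 and 6 days it was 0.39 (adjusted p = 0.0599), with 0.67 and a call without 3-day replicate 1 and 0.17 (adjusted p = 0.356) without 3-day replicate 2. The DKK1 window printed above, with its CTTTGA letters, belongs to a gene that was highest at 6 days. A link between these letters and the levels was not tested.

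DKK3 (chr11:11984526-12030917, minus strand), a divergent member of the DKK family, rose in each condition against the control that was tested. It was at 135.9 and 107.5 CPM in the control, 170.6 and 142.2 CPM at 3 days, 205.6 and 190.8 CPM at 6 days, and 333.5 and 354.9 CPM in MetaICM. No condition overlapped another. The log2 fold change was 0.36 at 3 days (0.18 without control replicate 2, 0.21 without 3-day replicate 1 and 0.54 without control replicate 1), 0.70 at 6 days (SE 0.13, edgeR adjusted p = 0.00167; 0.54 and no call without control replicate 2) and 1.50 in MetaICM (SE 0.13, adjusted p = 9.13e-05). DKK3 also rose in MetaICM against 6 days, by 0.80 (SE 0.07, edgeR adjusted p = 9.88e-09), and against 3 days, by 1.14 (2.65e-07). The difference between 3 and 6 days was 0.34 (95% interval 0.13 to 0.54, adjusted p = 0.0211; 0.20 without 3-day replicate 2), under the fold asked for a call. Per length, DKK3 exceeded DKK1 4.12- and 5.52-fold in the control libraries, 3.75- and 4.38-fold at 3 days, 3.71- and 3.97-fold at 6 days, and 12.3- and 10.2-fold in MetaICM.

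DKK2 (chr4:107842959-107957470, minus strand), a close relative of DKK1, was barely present. It had 1 and 1 counts in the control libraries, 13 and 8 at 3 days, 6 and 3 at 6 days, and 11 and 18 in MetaICM, or 0.0711, 0.569, 0.241 and 0.663 CPM as means. It did not pass the filter on low counts at 3 or 6 days against the control, and in MetaICM against the control or 6 days it reached it in the MetaICM libraries only. Between MetaICM and 6 days DKK2 rose by a log2 fold change of 1.45 (SE 0.54, edgeR adjusted p = 0.0278), a call lost with DESeq2 (adjusted p = 0.208), with all genes with a count (0.0724), and without 6-day replicate 1 (0.0554), 6-day replicate 2 (0.270) or MetaICM replicate 2 (0.235). Against the control it rose by 3.14 (adjusted p = 0.0148; 0.0587 without MetaICM replicate 1), and by counts MetaICM exceeded the control 9.69-fold with an exact interval of 2.45 to 83.8. MetaICM and 3 days overlapped (0.23, edgeR adjusted p = 0.719), and 6 days was below 3 days by a log2 fold change of -1.23 (95% interval -2.47 to 0.01, edgeR adjusted p = 0.157).

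AXIN2 (chr17:63524683-63557766, minus strand), the feedback gene most often read as a gauge of beta-catenin signalling, was lower at 3 and 6 days by less than the test could call. Its levels were 4.70 and 4.64 CPM in the control, 3.50 and 2.77 CPM at 3 days, 3.28 and 2.98 CPM at 6 days, and 5.15 and 3.82 CPM in MetaICM. All 3-day and 6-day libraries were below all control and MetaICM libraries. The log2 fold change was -0.57 at 3 days and -0.58 at 6 days (95% interval -1.10 to -0.07, edgeR adjusted p = 0.0667). MetaICM exceeded 6 days by 0.51 (95% interval 0.06 to 0.96, edgeR adjusted p = 0.0514). This was 0.72 (adjusted p = 0.0266) without MetaICM replicate 2 and 0.30 (0.380) without MetaICM replicate 1. MetaICM exceeded 3 days by 0.50 (edgeR adjusted p = 0.105), which was 0.69 (0.0324) without 3-day replicate 1 and 0.28 (0.553) without MetaICM replicate 1. MetaICM and the control differed by -0.07 (95% interval -0.58 to 0.44, adjusted p = 0.851). Like APCDD1, AXIN2 was thus lower in the 4 libraries of 3 and 6 days than in the other 4, but the control mean exceeded the 6-day mean 1.49-fold for AXIN2 and 18.2-fold for APCDD1.

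**Figure D3:**
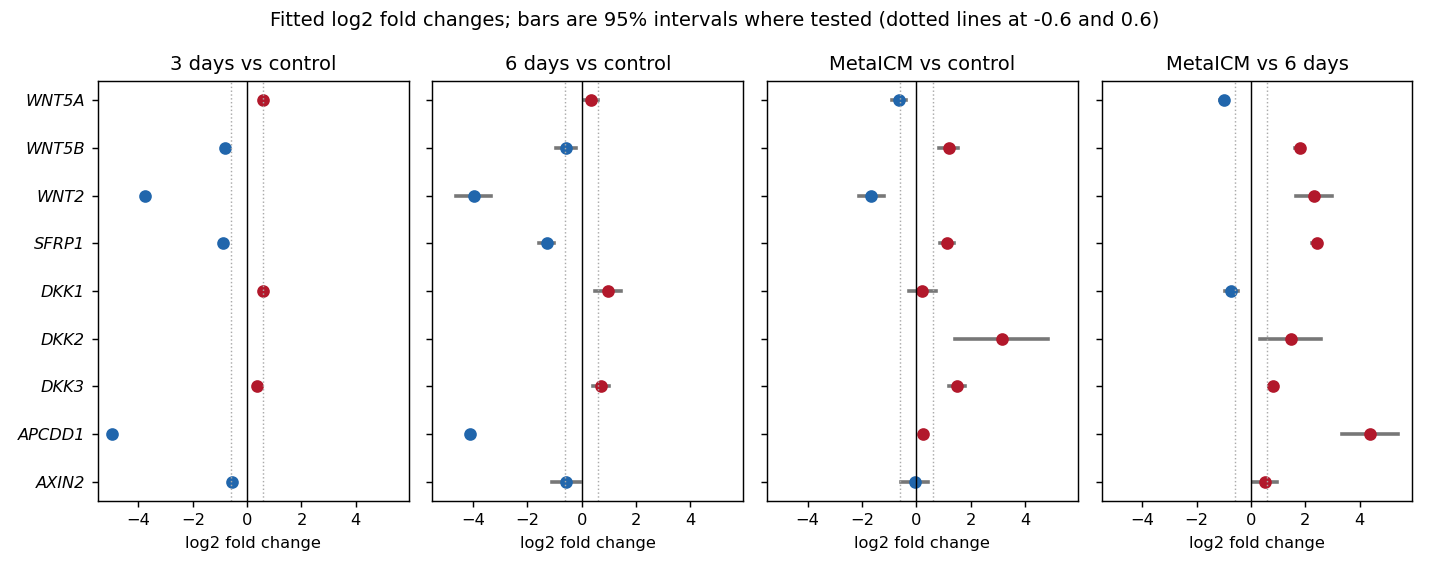
Fitted log2 fold changes of the genes in 4 comparisons (horizontal axis, log2 scale), with 95% intervals as grey bars where a test was made and dotted lines at the fold asked for a call. WNT2 lies at -3.98 at 6 days, where it reached the filter in the control only, and at 2.32 in MetaICM against 6 days. The points of AXIN2 stay within the dotted lines in all 4 panels. Its bars at 6 days against the control and in MetaICM against 6 days extend past them.

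Counted over the set, at 3 days 8 of the 10 genes passed the filter on low counts and 5 were past the thresholds, 1 higher and 4 lower. Over all 15692 genes 8.85% were higher and 13.2% lower, and nothing is read from the members' count there since the members were chosen in that comparison. WNT5A at 0.60 was the member nearest to the fold threshold from above and AXIN2 and DKK1 at -0.57 and 0.56 those nearest from below. At 6 days against the control 6 genes reached the filter in both conditions, of which 2 were higher (DKK1 and DKK3), beside 13.3% of all 15950 genes tested, and 1 was lower (SFRP1), beside 17.2%. WNT2 and APCDD1, which reached it in the control only, were also past the thresholds for lower genes and are left out of that count. The shares over all genes keep genes of that kind, so counts and shares are not on the same footing. Between 3 and 6 days none of the 8 tested was called by edgeR, and none of the 6 for which DESeq2 gave an adjusted p was called by DESeq2, beside 3.53% of all genes higher and 4.54% lower. In that comparison 4 of the 8 had an unadjusted p under 0.05 and 3 an adjusted p under 0.05, all under the fold asked for, and DKK1 alone was called when 3-day replicate 1 was left out.

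In MetaICM against the control 8 genes reached the filter in both conditions, of which 3 were higher (WNT5B, SFRP1 and DKK3), beside 7.41% of all genes, and 2 were lower (WNT2 and WNT5A), beside 8.99%. Against 3 days it was 8 genes, with 4 higher (WNT5B, WNT2, SFRP1 and DKK3), beside 13.1%, and 1 lower (WNT5A), beside 10.3%. Against 6 days it was 7 genes, with 4 higher (WNT2, WNT5B, SFRP1 and DKK3), beside 15.7% of 16036 genes, and 2 lower (WNT5A and DKK1), beside 12.0%. The calls of DKK2 against the control and 6 days, and the values of APCDD1 against 3 and 6 days, came through MetaICM only and are left out of these counts. The shares over all genes again keep genes that reached the filter in 1 condition only, unlike the counts. These comparisons share libraries with each other, so they are not separate evidence. SFRP1, WNT2 and WNT5B had lower values at 3 and 6 days than in the control and rose in MetaICM against 6 days, WNT5A and DKK1 had higher means and fell, and DKK3 was higher in both.

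The other 146 genes of a WNT pathway list, drawn up by role, gave the surroundings of the set. At 6 days 110 were tested, of which 10 rose and 32 fell against the control. That was 38.2% in all, beside 30.5% of all genes, and 9.09% higher and 29.1% lower, beside 13.3% and 17.2%. Their median log2 fold change was -0.17, beside a median of 0.00 over all genes. Without the list genes that reached the filter in 1 condition only, 10 of 103 rose and 29 fell. The list genes named for the largest decreases were BIRC5, a survival gene of dividing cells listed as a beta-catenin target (-4.13, edgeR adjusted p = 5.27e-07), RSPO2, a secreted amplifier of WNT signals (-3.04, 0.00332), and NKD2, which restrains WNT signalling inside the cell (-2.96, 0.00790). RSPO2 and NKD2 had 27 and 25 counts over both control libraries and 4 each at 6 days, so they reached the filter in the control only and had to differ to be tested. Those named for the largest increases were CELSR1, a planar polarity cadherin (2.33, 9.23e-06), PLCB4, a phospholipase of the calcium branch (1.60, 2.33e-06), and WNT16 (1.36, 0.00141). By role, the shares over all genes are again 17.2% lower and 13.3% higher. Of 15 receptors and co-receptors tested 4 fell and none rose. Of 15 nuclear factors 6 fell and none rose, and of 19 beta-catenin targets 8 fell and 4 rose. Of 4 intracellular feedback genes 3 fell, among them NKD2, which was in the filter through the control only. At 3 days 6 of 109 list genes rose (5.50%, beside 8.85% of all genes) and 25 fell (22.9%, beside 13.2%), among them FRZB, a secreted relative of the SFRP proteins (-3.46, edgeR adjusted p = 0.00119), which reached the filter in the control only. Of the 103 that reached the filter in both conditions there, 6 rose and 22 fell. APCDD1L, the paralog of APCDD1, rose at 3 days by 1.18 (edgeR adjusted p = 6.35e-05), with means of 21.6 CPM in the control, 49.1 at 3 days, 29.5 at 6 days and 12.2 in MetaICM, against the direction of APCDD1.

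Between MetaICM and 6 days 30 of 109 list genes rose (27.5%, beside 15.7% of all genes) and 10 fell (9.17%, beside 12.0%), 36.7% in all beside 27.7%. Among those that reached the filter in both conditions, 27 of 103 rose and 8 fell. Among genes that met the rule for naming, NKD2 (4.14, edgeR adjusted p = 8.58e-07), BIRC5 (4.09, 1.92e-11) and RSPO2 (3.08, 0.000177) rose the most. CELSR1 (-2.50, 1.95e-11), NRCAM, an adhesion molecule (-2.17, 2.11e-06), and NFATC2, a factor of the calcium branch (-1.47, 0.0308), fell the most among them. NKD2 and RSPO2 reached the filter in MetaICM only, and NFATC2 at 6 days only. The MetaICM libraries differed widely for NFATC2, with a mean of 0.390 CPM (SD 0.429) and 16 counts in all, beside 1.04 CPM (SD 0.424) at 6 days. Of 15 receptors and co-receptors 6 rose and none fell, and of 19 beta-catenin targets 8 rose and 2 fell. Against the control MetaICM had 5 list genes higher and 13 lower of 110, which is 16.4% in all and equal to the 16.4% of all genes, a count that ran from 8 to 29 in all when 1 library was left out. WNT16 rose there by 2.78 (edgeR adjusted p = 3.28e-05), from a mean of 3.55 to 24.9 CPM, and CCND1, the cyclin D1 gene, by 1.37 (0.000196), while FRZB (-1.46, 0.0287, in the filter through the control only), VANGL2 of the planar polarity branch (-1.38, 0.00508) and TCF7L2, a TCF factor (-1.01, 0.00332), fell. Between 3 and 6 days 7 of 107 list genes rose and 11 fell, 16.8% in all beside 8.07% of all genes. Among those that met the rule for naming, WNT16 (1.31, edgeR adjusted p = 0.000260) rose the most and VANGL2 (-1.30, 0.00206) fell the most. Against 3 days MetaICM had 24 of 110 list genes higher and 10 lower, 30.9% in all beside 23.4% of all genes, with NKD2 (3.80, edgeR adjusted p = 2.44e-05, in the filter through MetaICM only) and the tight junction gene CLDN1 (3.21, 4.81e-10) among the higher and APCDD1L (-2.00, 2.54e-09) among the lower. Of the 103 that reached the filter in both of these conditions, 21 were higher and 9 lower.

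**Figure D4:**
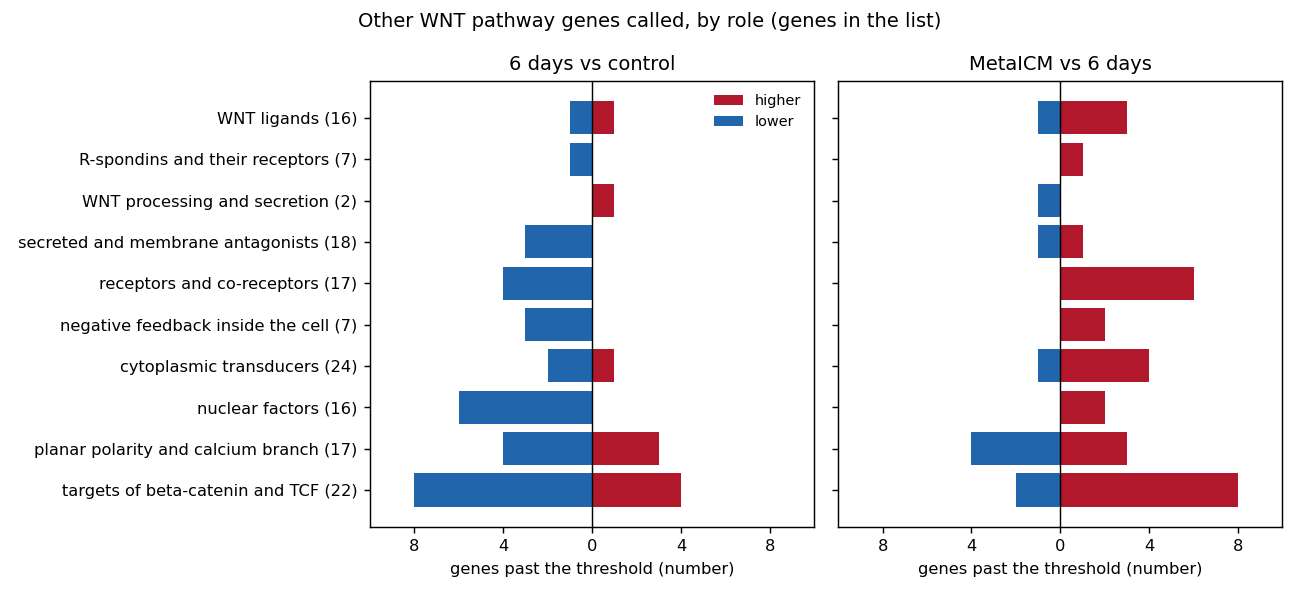
Number of the other WNT pathway genes called higher (right of 0) and lower (left of 0) in each role, with the number of list genes in each role in brackets, at 6 days against the control and in MetaICM against 6 days. Receptors have 4 genes lower in the left panel and 6 higher in the right one, with none in the opposite direction.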

How the data were processed

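The deposited files hold raw counts per gene, 1 file per library, made by the authors with STAR 2.6.0c on GRCh37 and featureCounts 1.6.3 with the refGene annotation: whole read pairs over exons, without strand and without pairs that matched several places or genes. Counts of introns, which the study also used, were not used here. Groups came from the labels. The 10 genes and the WNT and marker lists were chosen with earlier results of these data known. Each of 6 pairs of conditions (4 libraries a fit) was tested with edgeR 4.0.16 (TMM, filterByExpr at 10 counts, glmQLFTest, two-sided, Benjamini-Hochberg over all genes tested), checked on simulated counts. The cutoffs are those of the study's results text, which also compares conditions in pairs. The paper does not mention MetaICM, so the comparisons with MetaICM are not taken from it. Its methods name a stricter FDR, and its fits used intronic counts. SE is the absolute log2 fold change over the square root of F. Alternatives were DESeq2 1.42.0, its size factors, library totals, other filters, all 8 libraries in 1 fit, a replicate block and each library left out. Leaving out a library assumes that the lone one varies like the others. Named list genes were up to 3 per direction and comparison with the largest change among those called, without overlap and with 10 counts in each library of the higher condition. Promoter windows are from RefSeq tables; those of AXIN2, DKK2, DKK3 and SFRP1 were not analysed here. Depth was 12095123 to 23166405 counted pairs. The intervals of log2 fold changes rest on the SE of the fit, so they include the spread between libraries. Only the exact interval of the DKK2 count ratio and the SFRP2 floor cover counting error alone.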

Additional observations from a re-analysis of the deposited data

How the results depend on the processing

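Over the 6 comparisons, 514 of 546 alternative log2 fold changes of the genes kept their direction and their side of the thresholds, 17 lost a call, 8 gained one and 7 changed sign. The sign changes came with a library left out, in differences near 0 without a call: between 3 and 6 days AXIN2 ran from -0.17 to 0.18 and WNT2 from -0.58 to 0.36, between MetaICM and the control AXIN2 ran from -0.27 to 0.15 and DKK1 from -0.087 to 0.676, and between MetaICM and 3 days DKK2 ran from -0.071 to 0.455. At 3 days the set's 5 calls became 2 with at least 10 counts asked in every library, which removes APCDD1 and WNT2 by construction and leaves WNT5A at 0.596, under the fold asked for, and all genes called, 3456, ran from 2301 to 4068 with a library left out. Between 3 and 6 days the 0 calls of the set ran from 0 to 1. Between MetaICM and the control the list's 18 calls ran from 8 to 29, and the 2609 over all genes ran from 1049 (without MetaICM replicate 2) to 4086 (without control replicate 1) and became 1532 at adjusted p under 0.01; the cause was not tested. Whether replicate numbers pair the samples is not stated in the labels. Deviations of same-numbered libraries correlated from -0.156 to 0.265 over the pairs of conditions, highest between the control and 3 days. With 2 libraries a condition these values cannot settle it. With the number as a replicate block all calls went from 3456 to 3915 at 3 days and from 4859 to 5116 at 6 days, and the set's counts stayed at 5 and 5; in the other comparisons the block moved no count by over 1.5 times. A crossed pairing for MetaICM against 3 days, added after seeing the data, gave 3956 calls beside 3798. The low counts of APCDD1 and DKK2 limit their precision.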
